A study of Mus musculus with 12 samples.

Results

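The MHC class II antigen presentation genes were followed through 12 mouse RNA-seq libraries from acute dextran sulfate sodium (DSS) colitis. They were taken by name, not by a rule on their values, but earlier results of these data were known. H2-Aa, H2-Ab1, H2-Eb1, H2-DMa, H2-DMb1, H2-DMb2, H2-Oa, H2-Ob, Cd74 and Ciita make 10 of the 54109 genes in the count table. All 10 were matched to the table through the GENCODE M21 annotation of GRCm38, and all 10 passed the filter on low counts in every comparison. The libraries came from lamina propria mononuclear cells (LPMC, the leukocyte preparation from the gut wall) or from full colon tissue of Gpr15l-/- (KO) and wild-type (WT) mice. Gpr15l encodes a secreted chemoattractant of the gut epithelium, and its receptor GPR15 is found on lymphocytes. DSS, given to all mice of all 4 groups, damages the colonic epithelium and starts an inflammation. The groups were LPMC KO, LPMC WT, colon KO and colon WT, with 3 libraries each. The labels give no strain, age or sex, do not name the type of KO allele, and do not say whether each library is a separate animal, so the spread behind each p-value is that of libraries and may be technical.

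MHC class II molecules are pairs of an alpha and a beta chain that carry peptides from the endosomes to the cell surface, where CD4+ T cells read them. The invariant chain, encoded by Cd74, fills the groove until it is cut down to a short stub, which H2-DM then exchanges for peptide, while H2-O holds H2-DM back. Dendritic cells, macrophages and B cells express the class II chains and Cd74 through the coactivator Ciita. Interferon gamma switches Ciita on in other cells, the gut epithelium among them.

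In GRCm38 the H2 genes stand together on chromosome 17: H2-Oa at chr17:34092340-34095234, H2-DMa at chr17:34119541-34139101, H2-DMb2 at chr17:34143307-34151555, H2-DMb1 at chr17:34153072-34160230, H2-Ob at chr17:34238903-34254414, H2-Ab1 at chr17:34257689-34269419, H2-Aa at chr17:34282744-34287823 and H2-Eb1 at chr17:34305867-34316674. Ciita is at chr16:10480059-10528418. All are on the plus strand except H2-Aa, and all 10 genes are annotated as protein coding.

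Ciita does not bind DNA itself but is recruited to class II promoters by factors on short boxes, of which the Y box carries the letters TGATTGG read by NF-Y, and the X box upstream of it is bound by the RFX complex. RefSeq promoter windows on GRCm38.p6, from 250 bases before to 50 after a start, were on hand for 7 of the 10 genes; H2-Ab1, Cd74 and Ciita had none. TGATTGG, searched on both strands, was present in the windows of 6 of these 7 genes, against 7.82% of all 32851 windows. The letters AAC followed 23 to 26 bases later by TGATTGG were present in the same 6 genes, against 0.46% of all windows. These letters were chosen after the windows had been read, so the shares are a description. The 6 stretches below run 5′ to 3′ on the gene's strand, with AAC and TGATTGG in capitals. Their spacing of 23 to 26 bases was set by the search.
H2-Aa: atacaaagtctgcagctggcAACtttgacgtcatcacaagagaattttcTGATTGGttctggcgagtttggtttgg
H2-Eb1: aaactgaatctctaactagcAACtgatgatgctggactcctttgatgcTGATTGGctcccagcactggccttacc
H2-DMb1: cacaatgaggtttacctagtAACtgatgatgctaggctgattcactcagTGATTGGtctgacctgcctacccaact
H2-DMb2: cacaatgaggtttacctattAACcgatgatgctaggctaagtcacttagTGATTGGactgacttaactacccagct
H2-Oa: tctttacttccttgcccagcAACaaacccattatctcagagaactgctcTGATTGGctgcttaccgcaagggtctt
H2-Ob: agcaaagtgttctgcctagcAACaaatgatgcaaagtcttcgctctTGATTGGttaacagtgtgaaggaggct
The stretches are at chr17:34287847-34287922 (minus strand) for H2-Aa, chr17:34305758-34305832 for H2-Eb1, chr17:34153079-34153154 for H2-DMb1, chr17:34145108-34145183 for H2-DMb2, chr17:34092285-34092360 for H2-Oa and chr17:34238800-34238872 for H2-Ob. TGATTGG began 45 to 92 bases before the RefSeq start, closest in H2-Oa and farthest in H2-DMb2; for H2-Oa, H2-DMb1 and H2-DMb2 that start lies inside the GENCODE gene. The stretches of H2-DMb1 and H2-DMb2 begin with nearly the same letters, and 369 of the 50-base words of their transcripts are shared (22.7% of those of H2-DMb1 and 21.2% of those of H2-DMb2), so some reads of either gene could be counted for the other. No other pair of the 10 genes shares a 50-base word.  H2-DMa, which has 2 windows, held ATTGG in 1 of them but not TGATTGG, and ATTGG occurs in 37.4% of all windows.

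Libraries held between 45.4 and 140.7 M counts (M, 1e6), and the lowest count of the 10 genes in any library was 16, for H2-Oa. Gpr15l itself had 4 to 20 counts in KO libraries and 15639 to 80362 in WT libraries. The LPMC libraries were not free of epithelium: Epcam, an epithelial adhesion molecule, was at 964 to 1396 counts per 1e6 counts (CPM) in LPMC and 1354 to 2418 CPM in colon. Ptprc, the pan-leukocyte surface phosphatase CD45, was at 75.8 to 294 CPM in LPMC and 4.09 to 123 CPM in colon. All levels are CPM with trimmed mean of M values (TMM) scaling unless they are said to be per length. Colon WT replicate 1 stood apart in its B cell markers, 10 genes such as Cd79a that summed to 1039 CPM there and to 2.71 to 25.5 CPM in the other 5 colon libraries. Colon KO replicate 2 stood apart in leukocyte content, with 10 pan-leukocyte markers such as Ptprc and Coro1a at a sum of 47.3 CPM against a range of 132 to 1034 CPM over the remaining colon libraries.

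Per length of exon, as CPM per kilobase (RPKM), Cd74 was the most abundant of the 10 genes in all 12 libraries, at 259 to 1474 RPKM. H2-Ab1 at 56.9 to 321 RPKM and H2-Eb1 at 30.5 to 318 RPKM came next and could not be ordered, since H2-Ab1 was the higher in 6 of 12 libraries. H2-Aa followed at 21.0 to 191 RPKM, and was below H2-Eb1 and above H2-DMb1 in all 12 libraries. H2-DMb1 was at 11.1 to 63.2 RPKM and H2-DMa at 6.40 to 26.1 RPKM, while H2-DMb2 ranged from 0.260 to 53.6 RPKM. H2-Ob (0.0874 to 20.3 RPKM), H2-Oa (0.184 to 17.0 RPKM) and Ciita (0.645 to 8.12 RPKM) were lowest, and H2-Ob was above H2-Oa in 8 libraries and H2-Oa above Ciita in 6. Together the 10 genes took 0.131 to 0.518% of all counts in LPMC KO, 0.161 to 0.369% in LPMC WT, 0.0691 to 0.150% in colon KO and 0.108 to 0.321% in colon WT.

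**Figure D1:**
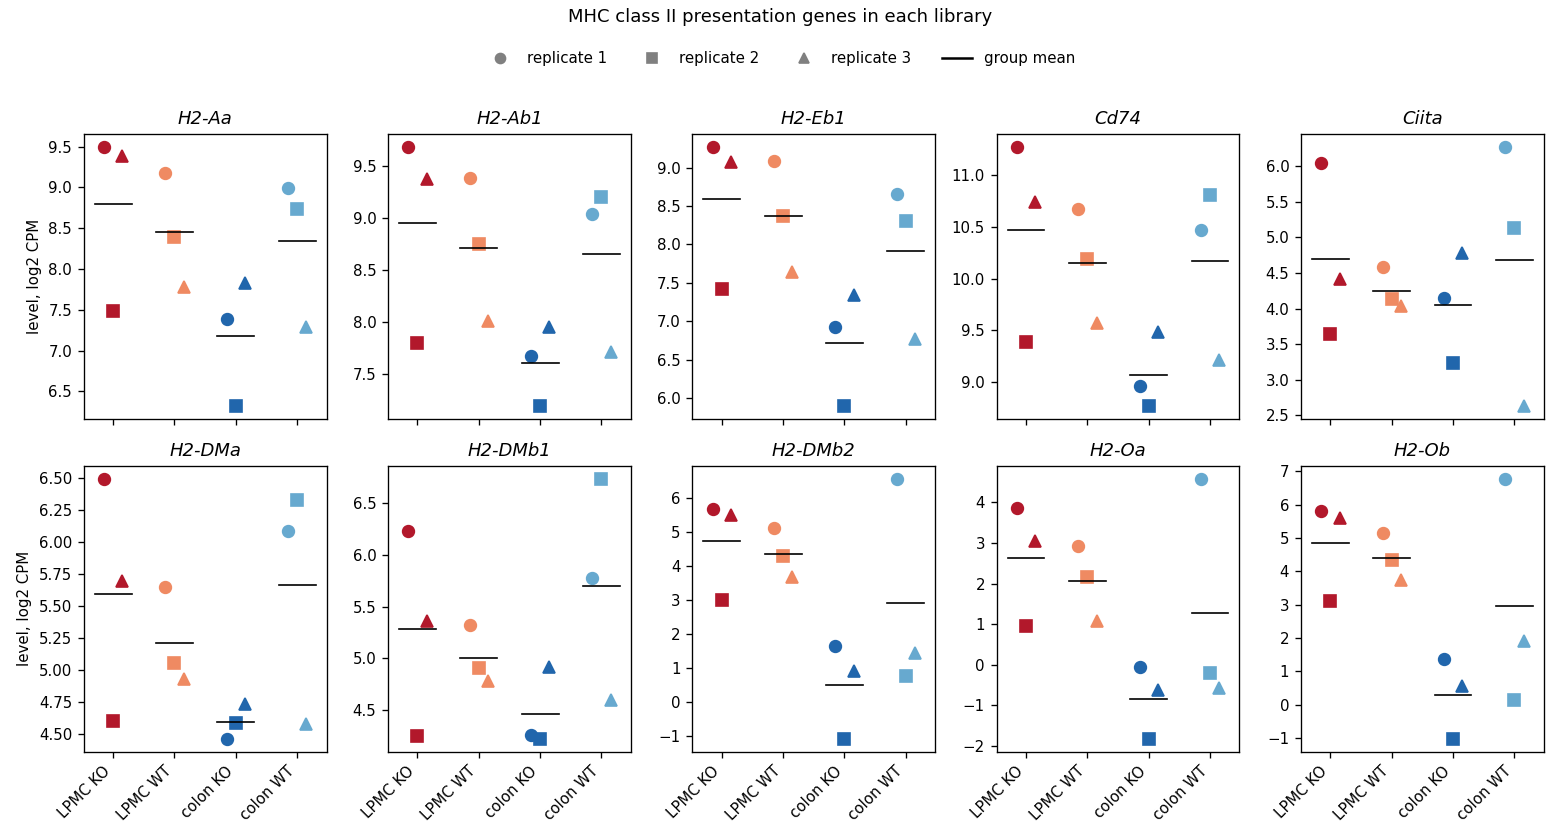
Level of each gene as log2 CPM (y axis, own scale per panel) in the 3 libraries of LPMC KO, LPMC WT, colon KO and colon WT (x axis), with the replicate number as the symbol and the group mean as a bar. Colon WT replicate 1 is the highest point for H2-DMb2, H2-Oa and H2-Ob, colon WT replicate 2 is the highest for H2-DMb1, and colon KO replicate 2 is the lowest for H2-Aa, H2-Ab1, H2-Eb1 and Cd74.

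In full colon all 10 genes had lower mean levels in KO than in WT, but none passed the test across all genes. None separated the groups. With libraries scaled to pan-leukocyte markers 7 of the 10 lay above 0 but below the median of all genes, which moved to 1.37. Per pan-leukocyte marker, colon WT replicate 1 was the lowest colon library for H2-Aa, H2-Ab1, H2-Eb1, H2-DMa, H2-DMb1 and Cd74. That scaling was not run without this library. H2-Ab1, the beta chain of the I-A molecule, had 204, 146 and 247 CPM in colon KO libraries, against 525, 587 and 210.5 CPM in colon WT libraries. H2-Aa, its alpha chain, had 168, 79.6 and 228 CPM in KO, against 511, 426 and 156 CPM in WT. H2-Eb1, the beta chain of the I-E molecule, had 121, 59.4 and 162 CPM in KO, against 403, 316 and 109 CPM in WT. For all 3 chains colon WT replicates 1 and 2 were high, and WT replicate 3 fell within the KO range. The log2 fold changes, KO over WT, were -1.19 (SE 0.40) for H2-Ab1, -1.25 (SE 0.52) for H2-Aa and -1.32 (SE 0.53) for H2-Eb1, with an adjusted p of 0.632 each (edgeR's quasi-likelihood test, 3 libraries per group). In bulk tissue, fewer cells of a type and less RNA per cell cannot be told apart.

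The invariant chain gene Cd74, on the plus strand at chr18:60803848-60812652, had 499, 435 and 715 CPM in colon KO, against 1416, 1793 and 596 CPM in colon WT. Its log2 fold change was -1.25 (SE 0.42). H2-DMa, the alpha chain of the peptide exchange factor, had 22.1, 24.0 and 26.6 CPM in colon KO, against 67.8, 80.0 and 23.9 CPM in colon WT. H2-DMb1, one of its beta chains, had 19.1, 18.6 and 30.1 CPM in KO, against 54.7, 106 and 24.1 CPM in WT. The KO libraries lay close together and WT replicate 3 lay among them, so the difference was carried by WT replicates 1 and 2. Log2 fold changes were -1.28 (SE 0.42) for H2-DMa and -1.49 (SE 0.51) for H2-DMb1. Reads of H2-DMa are also open to its neighbour on the opposite strand, Brd2, which shares 360 bases of exon with it (10.4% of the H2-DMa exons) and has 794% of its counts, and the strand setting of the count is not given in the sources used here. Ciita, the coactivator, had 17.8, 9.40 and 27.4 CPM in KO, against 77.4, 35.2 and 6.15 CPM in WT, so WT held both the highest and the lowest colon libraries (log2 fold change -1.17, SE 0.81, adjusted p 0.697).

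The 3 genes furthest from 0 in colon were those whose level followed a single library. H2-DMb2, the second beta chain of H2-DM, had 3.10, 0.454 and 1.85 CPM in colon KO, against 93.6, 1.68 and 2.73 CPM in colon WT. H2-Oa, the alpha chain of the inhibitor H2-O, had 0.940, 0.259 and 0.622 CPM in KO, against 23.9, 0.851 and 0.646 CPM in WT. H2-Ob, its beta chain, had 2.56, 0.470 and 1.46 CPM in KO, against 109, 1.08 and 3.78 CPM in WT. Colon WT replicate 1 was far above the other 5 colon libraries in all 3, and the other 2 WT libraries were within or near the KO range. The log2 fold changes were -4.23 (SE 1.61), -3.85 (SE 1.45) and -4.72 (SE 1.69) for H2-DMb2, H2-Oa and H2-Ob with all libraries. Without colon WT replicate 1 they were -0.32, -0.33 and -0.73, and Ciita was at -0.23. H2-Ab1, Cd74, H2-DMa and H2-DMb1 stayed between -1.04 and -1.57 without that library, and H2-Aa and H2-Eb1 were at -0.92 and -0.94. With colon KO replicate 2 also left out, H2-DMb2, H2-Oa and Ciita were at 0.12, 0.02 and 0.08, and H2-Aa and H2-Eb1 at -0.61 and -0.63.

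Of the 10 genes, 0 were called at an adjusted p under 0.05 in colon, where 0.00518% of the 19303 genes tested were called. At an unadjusted p under 0.05, 9 of the 10 were lower in KO, against 4.47% of all genes tested, and DESeq2 called 0 of the 7 it gave an adjusted p (0.0828% of all genes were lower by DESeq2). For H2-DMb2, H2-Oa and H2-Ob it gave none. No gene of the 10 had KO and WT libraries that did not overlap, against 6.12% of all genes that lay lower in KO without overlap. The median log2 fold change was -1.30 over the 10 genes and 0.01 over all genes tested.

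In LPMC all 10 genes had higher mean levels in KO than in WT, by less than the spread between libraries, and with libraries scaled to macrophage markers all 10 lay below 0, where the median of all genes was -0.70 and that of the 10 genes -0.55. H2-Ab1 had 824, 223 and 665 CPM in LPMC KO, against 669, 430.3 and 258 CPM in LPMC WT. Cd74 had 2474, 668 and 1713 CPM in KO, against 1629.7, 1169.5 and 763 CPM in WT. H2-Ob had 56.3, 8.60 and 48.0 CPM in KO, against 35.3, 20.1 and 13.4 CPM in WT. KO replicate 1 was the highest and KO replicate 2 the lowest of the 6 LPMC libraries for each of these 3 genes, so the KO range enclosed that of WT. The log2 fold changes were 0.33 (SE 0.54) for H2-Ab1, 0.43 (SE 0.50) for Cd74, 0.71 (SE 0.70) for H2-Ob and, at the upper end, 0.79 (SE 0.76) for H2-Oa. The adjusted p was 0.998 for all 10 genes, 0 were called (0.0103% of 19426 genes tested were), and 0 had an unadjusted p under 0.05 (1.2% of all genes were higher at that p). DESeq2 called 0 of the 10 as well. The median over the 10 genes was 0.50, against 0 over all genes, and it was 0.03 without LPMC KO replicate 1.

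The KO effect in LPMC minus that in colon was above 0 for all 10 genes, with a median of 1.85 against -0.01 over all genes tested, but with pan-leukocyte scaling only H2-DMb2, H2-Oa and H2-Ob stayed above 0 (median -0.27, all genes -1.47). It was 1.50 (SE 0.72) for H2-Ab1, 1.67 (SE 0.69) for Cd74, 1.79 (SE 0.67) for H2-DMa and 5.39 (SE 1.95) for H2-Ob. Without colon WT replicate 1 it was 1.35 for H2-Ab1, 1.58 for Cd74, 1.65 for H2-DMa, 1.43 for H2-Ob, 0.94 for H2-DMb2 (4.83 with all libraries) and 1.10 for H2-Oa (4.61 with all libraries). Each of the 10 had an adjusted p of 0.902 (edgeR), so no difference between the tissues in the KO effect was called, and 0% of the 20989 genes tested were called. At an unadjusted p under 0.05, 6 of the 10 genes were higher, against 2.69% of all genes, and DESeq2 called 0 of the 10.

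Leukocyte and epithelial content also differed between libraries. In colon the 10 pan-leukocyte markers summed to 223, 47.3 and 239 CPM in KO, against 1034, 281 and 132 CPM in WT, and the 12 monocyte and macrophage markers to 243, 113 and 274 CPM in KO, against 256, 279.7 and 149 CPM in WT. The 10 epithelial markers summed to 20656, 38664 and 20216 CPM in colon KO, against 29646, 27493 and 28518 CPM in colon WT. The 10 pan-leukocyte markers were all lower in colon KO, with a median log2 fold change of -1.59, and 4 of the 12 macrophage markers were higher in KO, with a median of -0.17. In LPMC the pan-leukocyte markers summed to 1719.5, 475 and 1671 CPM in KO, against 1182, 786 and 668 CPM in WT. The epithelial markers summed to 13850, 15685 and 11443 CPM in LPMC KO, against 13945, 15556 and 16208 CPM in LPMC WT. That was above the pan-leukocyte sum in every LPMC library. All 12 macrophage markers lay higher in LPMC KO than in LPMC WT (median 1.03). The median over 8 neutrophil markers was 1.81, with 5 higher at an unadjusted p under 0.05 (1.2% of all genes were). In colon, 6 fibroblast markers and 6 smooth muscle markers all lay above 0 in KO over WT, with medians of 0.76 and 0.96. In colon, KO over WT, the median was -1.30 over 11 T cell markers, -5.05 over 10 B cell markers and -0.41 over 10 dendritic cell markers. Without colon WT replicate 1 it was 0.08 over the B cell markers and -0.27 over the pan-leukocyte markers. The part of cell content in the KO difference was not tested beyond the scalings that follow.

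When libraries were scaled to the pan-leukocyte markers in place of TMM, the median of the 10 genes in colon was 0.15 and 7 of 10 were above 0, while the median of all genes moved to 1.37. H2-Ab1 was then at 0.35 (SE 1.38) and Cd74 at 0.32 (SE 1.42), and the SE of each was more than its value. H2-DMb2, H2-Oa and H2-Ob stayed below 0, at -1.84, -1.27 and -2.26. Against the pan-leukocyte markers, the mean log2 CPM of H2-Aa, H2-Ab1, H2-Eb1 and Cd74 stood 2.95 higher in colon WT replicate 1. It stood 4.81 and 4.47 higher in WT replicates 2 and 3, and 3.67, 5.31 and 3.95 higher in KO. Colon WT replicate 1 was thus the lowest colon library, and the pan-leukocyte scaling was not run without it. Scaled to the monocyte and macrophage markers, all 10 genes stayed below 0 in colon with a median of -0.87 (all genes 0.59), and 2 were called lower in KO, H2-DMb2 at -4.08 (SE 0.97, edgeR adjusted p 0.0243) and H2-Ob at -4.50 (SE 0.99, adjusted p 0.00855), where 0.104% of all genes were. Colon WT replicate 1 alone had high levels of either gene, and without it they were at -0.60 and -1.04 with this scaling and 0 of the 10 were called. Scaled to the epithelial markers the median was -0.93 (all genes 0.29) and 0 were called. In LPMC the median was -0.03 per pan-leukocyte marker, -0.55 per macrophage marker and 0.72 per epithelial marker, with all genes at -0.12, -0.70 and 0.21, and 0 of the 10 were called under any of these 3 scalings.

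**Figure D2:**
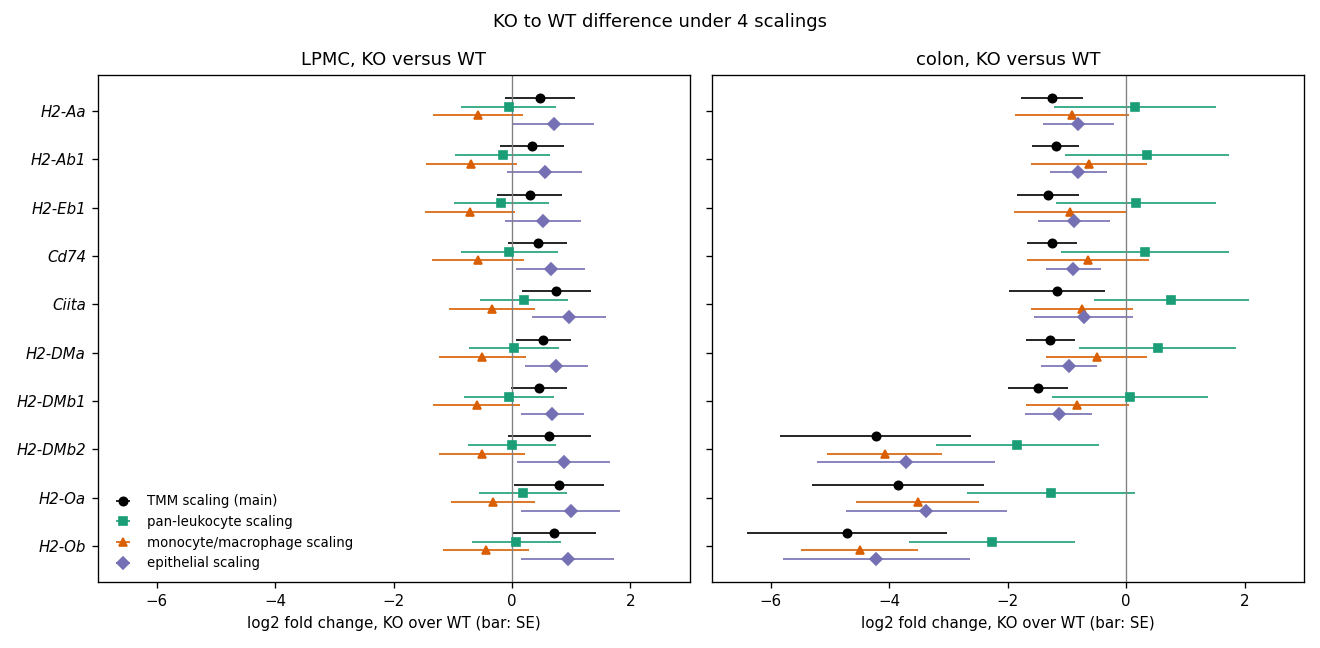
Log2 fold change of each gene, KO over WT (x axis, bar for SE), in LPMC (left) and colon (right), with libraries scaled by TMM, pan-leukocyte, monocyte and macrophage, or epithelial markers. In colon the TMM values run from -4.72 to -1.17. With pan-leukocyte scaling 7 of 10 genes lie above 0 there, where the median of all genes is 1.37. In LPMC the TMM values run from 0.30 to 0.79.

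Some of the genes kept their proportions across libraries and others did not. In RPKM, Cd74 was 3.73 to 4.67 times H2-Ab1 over all 12 libraries, and H2-Aa was 0.369 to 0.683 times H2-Ab1. H2-DMb2 was 0.401 to 1.06 times H2-DMb1 in LPMC KO, 0.450 to 0.823 times in LPMC WT, 0.0234 to 0.156 times in colon KO, and 0.0152 to 1.64 times in colon WT. In colon WT the ratio was 1.64 in replicate 1 and 0.109 or less in the other 2 libraries. H2-Ob was 0.141 to 0.365 times H2-DMb1 in LPMC KO and 0.153 to 0.275 times in LPMC WT, but 0.00788 to 0.0418 times in colon KO and 0.00318 to 0.623 times in colon WT.

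H2-DMb2, H2-Oa and H2-Ob kept step with the B cell markers in LPMC, and less closely in colon. With group means taken out, their correlation (r) with the B cell markers over all 12 libraries was 0.971, 0.920 and 0.991. It was 0.903, 0.896 and 0.867 with the T cell markers, and 0.882, 0.880 and 0.807 with the pan-leukocyte markers. These r values include colon WT replicate 1, whose B cell markers had a mean log2 CPM of 6.46, against -2.1 and 0.65 in replicates 2 and 3. They were not computed without it, nor within LPMC. H2-Oa alone, minus the B cell mean, ran from -1.88 to 1.91 in colon. B cells are the main known site of H2-O, and the mean log2 CPM of these 3 genes minus that of the 10 B cell markers was 0.03, -0.10 and -0.04 in LPMC KO and 0.03, 0.05 and -0.05 in LPMC WT, while the B cell mean itself ran from 2.45 to 5.09. The same difference was -0.18, 0.91 and 0.92 in colon KO and -0.49, 2.34 and 0.28 in colon WT. The highest value, 2.34 in colon WT replicate 2, came where the B cell markers summed to 3.75 CPM and the 3 genes had 73, 37 and 47 counts. H2-Aa, H2-Ab1, H2-Eb1 and Cd74 did not keep such step, since their mean log2 CPM exceeded that of the B cell markers by 4.85 to 5.58 in LPMC and by 2.83 to 11.36 in colon. Colon WT replicate 2 shows this most plainly: these 4 genes averaged 9.26 there and 9.29 in colon WT replicate 1, although B cell markers summed to 3.75 CPM and 1039 CPM in the 2 libraries.

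Against the pan-leukocyte markers, the mean log2 CPM of H2-Aa, H2-Ab1, H2-Eb1 and Cd74 stood 2.68 to 2.90 higher in LPMC KO, 2.60 to 3.12 in LPMC WT, 3.67 to 5.31 in colon KO and 2.95 to 4.81 in colon WT. The 6 LPMC libraries lay between 2.60 and 3.12, and the colon libraries spread more widely. The largest difference, 5.31, was in colon KO replicate 2, the colon library with the least leukocyte RNA. Against the epithelial markers the same mean stood from -0.06 to -2.12 in LPMC KO, -0.44 to -2.02 in LPMC WT, -2.33 to -4.33 in colon KO and -1.74 to -3.20 in colon WT.

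**Figure D3:**
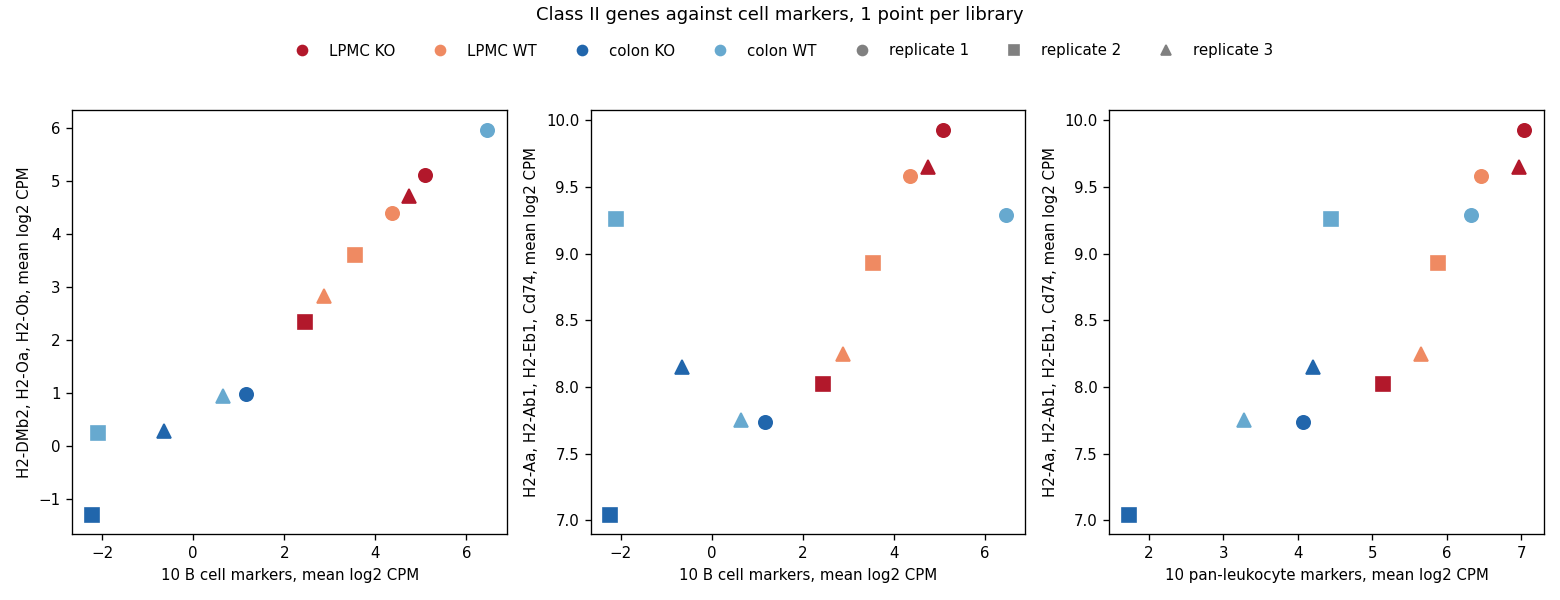
Each point is a library, coloured by group and shaped by replicate number, with mean log2 CPM on both axes. H2-DMb2, H2-Oa and H2-Ob against 10 B cell markers lie near a line with colon WT replicate 1 at its top (left), H2-Aa, H2-Ab1, H2-Eb1 and Cd74 against the same markers do not, with colon WT replicate 2 at 9.26 (middle), and the same 4 genes rise with 10 pan-leukocyte markers (right).

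After the group means were taken out, the genes most like the mean of H2-Aa, H2-Ab1, H2-Eb1 and Cd74 over the 12 libraries, among 12137 genes ranked, were Dubr (r 0.986), Anxa6 (r 0.981), Plekho2 and Card9 (both r 0.976), Sdc3 (r 0.972), Ntng2, Sp110 and Rasgrp4 (all r 0.971). These values are descriptive, since libraries share depth and cell content. Within the 10, H2-DMa and H2-DMb1 had r values of 0.901 and 0.875 with that mean, Ciita 0.845, H2-Oa 0.707, H2-DMb2 0.615 and H2-Ob 0.520.

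In KO mice 4 of the 10 genes were called higher in LPMC than in colon, where 14.5% of the 20989 genes tested were. H2-Eb1, with 618, 172 and 539 CPM in LPMC KO against 121, 59.4 and 162 CPM in colon KO, did not overlap between the tissues and had a log2 fold change of 1.97 (SE 0.61, edgeR adjusted p 0.0354). Cd74 was higher by 1.57 (SE 0.50, adjusted p 0.0373) and H2-Ab1 by 1.53 (SE 0.52, adjusted p 0.0484), and for both LPMC KO replicate 2 lay below the highest colon KO library. H2-Ob was higher by 4.66 (SE 1.51, adjusted p 0.042), with 8.60 to 56.3 CPM in LPMC KO against 0.470 to 2.56 CPM in colon KO. H2-DMb2, with 51.0, 7.93 and 45.1 CPM in LPMC KO against 3.10, 0.454 and 1.85 CPM in colon KO, and H2-Oa, with 14.4, 1.91 and 8.27 CPM against 0.940, 0.259 and 0.622 CPM, did not overlap either but missed the threshold (adjusted p 0.0502 and 0.0591). In all, 4 genes of the 10 lay higher in LPMC KO without overlap, against 23.3% of all genes. The median of the 10 was 1.66, against 0 for all genes.

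These calls were close to the threshold. Replicate numbers were taken to pair the tissues within a genotype, which the labels do not state. With each pair as a block, edgeR called 7 genes in KO (15.6% of all genes were higher). Besides the 4 these were H2-Aa at 1.63 (adjusted p 0.00271), H2-DMb2 at 4.28 (adjusted p 0.0189) and H2-Oa at 3.57 (adjusted p 0.0146). DESeq2 also called 7 (17.9% of all genes were higher), and edgeR with no filter on low counts called 0 (6.88%). Scaled to the epithelial markers 9 genes were called higher (38.1% of all genes were), and scaled to the macrophage markers H2-DMb2, H2-Oa and H2-Ob were (4.28% of all genes were). Leaving out colon KO replicate 1 or 2 or LPMC KO replicate 1 or 3 left 0 genes called, leaving out colon KO replicate 3 or LPMC WT replicate 2 left 1, and leaving out colon WT replicate 3 gave 8. Calls over all genes, in either direction, also varied with the library left out, from 3647 to 6269. Scaled to pan-leukocyte markers the median turned to -1.76 and H2-DMa (-2.49), H2-DMb1 (-2.55) and Ciita (-2.40) were called lower in LPMC, but so were 77.6% of all genes, whose median was -3.20. Between LPMC KO and colon KO the median log2 fold change was 3.06 over the pan-leukocyte markers and 3.91 over the T cell markers. It was 4.31 over 6 plasma cell markers and 4.60 over the B cell markers. Of the latter 10 of 10 lay higher without overlap, against 23.3% of all genes. All 10 genes of a list for the stress of cell dissociation, such as Fos, were called higher in LPMC in both genotypes. Their medians were 4.44 in KO and 4.19 in WT, where 14.5% and 17.8% of all genes were called higher. The part of these markers and stress genes in the tissue difference was not tested.

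In WT mice 0 of the 10 genes were called between the tissues, where 35.4% of all genes were, with 3 above 0, 7 below and a median of -0.57. That median was 0.28 without colon WT replicate 1, 0.17 with macrophage scaling (all genes 0.65) and 0.33 with epithelial scaling (all genes 0.85). With each pair of a genotype as a block H2-DMb2, H2-Oa and H2-Ob were at 1.57, 0.87 and 1.52, and 0 of the 10 were called. H2-Eb1, with 544, 332 and 200.3 CPM in LPMC WT against 403, 316 and 109 CPM in colon WT, had a log2 fold change of 0.38 (SE 0.59, edgeR adjusted p 0.650). Cd74 was at -0.10 (SE 0.49), H2-DMb1 at -0.93 (SE 0.54) and Ciita at -1.04 (SE 0.80). At an unadjusted p under 0.05 the count was also 0 (22.9% of all genes were lower and 23.1% higher), and DESeq2 called 0 of the 10. Without colon WT replicate 1, the library with high B cell markers, 3 genes were called higher in LPMC WT, H2-DMb2 at 3.33 (adjusted p 0.0257), H2-Oa at 2.66 (adjusted p 0.0401) and H2-Ob at 3.23 (adjusted p 0.0318), where 16.7% of all genes were. The KO and WT tissue differences were compared by the test of the KO effect between tissues given above, which called 0 genes.

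**Figure D4:**
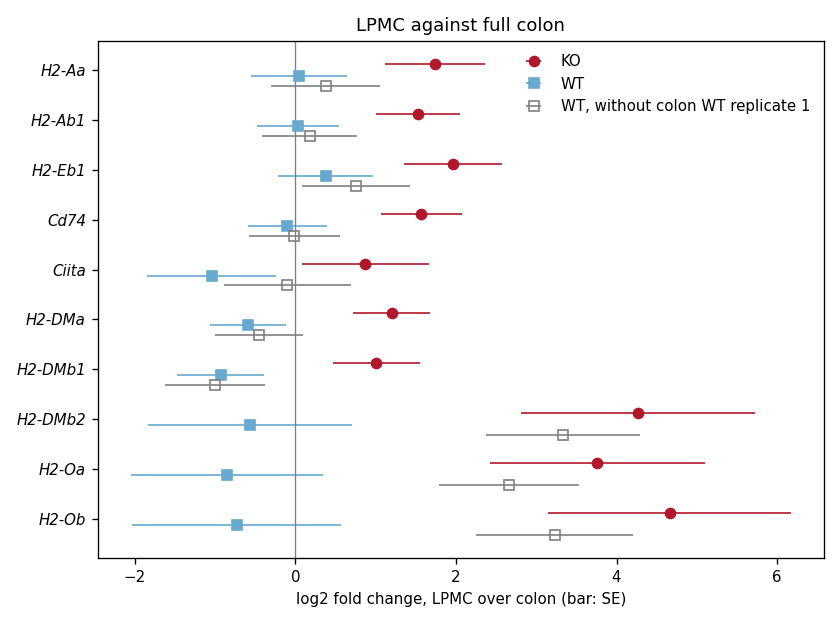
Log2 fold change of each gene, LPMC over colon (x axis, bar for SE), in KO (circles), in WT (squares) and in WT without colon WT replicate 1 (open squares). All 10 KO values lie above 0 with the TMM scaling plotted (their median is -1.76 with pan-leukocyte scaling), and H2-DMb2, H2-Oa and H2-Ob in WT lie below 0 with all libraries and at 2.66 or more without colon WT replicate 1.

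The wider presentation pathway was read through lists of related genes, with TMM scaling; pan-leukocyte scaling would move the median of all genes in colon to 1.37. Between KO and WT, edgeR and DESeq2 each called 0 genes of these lists in either tissue. Of 7 factors that bind class II promoters (Rfx5, Rfxap, Rfxank, Nfya, Nfyb, Nfyc and Creb1), 0 were called between KO and WT in either tissue, with medians of -0.01 in LPMC and -0.19 in colon. Rfx5, a subunit of the RFX complex, had 14.7, 9.26 and 14.7 CPM in colon KO, against 20.4, 12.1 and 10.7 CPM in colon WT, a narrower range than that of Ciita. Rfxank, another subunit, was lower in LPMC than in colon in both genotypes, with log2 fold changes of -0.62 (SE 0.19, edgeR adjusted p 0.0299) in KO and -0.70 (SE 0.19, adjusted p 0.0148) in WT. No gene of the 7 was called in KO without any 1 of LPMC KO replicates 1, 2 and 3 and colon KO replicates 1 and 2, or in WT without LPMC WT replicate 3 or colon WT replicate 3. Of the other class II genes, H2-Eb2, a beta chain gene beside H2-Eb1, had 0.590, 0 and 0.273 CPM in colon KO, against 23.4, 0 and 0.661 CPM in colon WT, again with colon WT replicate 1 alone high. H2-Ea-ps had a mean of 0.00995 CPM over all libraries and was not tested.

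Of 8 genes for invariant chain and peptide processing, 0 were called between KO and WT in either tissue. Ifi30, the endosomal thiol reductase GILT, had 117, 152 and 118 CPM in colon KO, against 202, 178 and 192 CPM in colon WT. The groups did not overlap, and 6.12% of all genes lay lower in KO without overlap. The log2 fold change of Ifi30 was -0.59 (SE 0.18, edgeR adjusted p 0.632). Between tissues, 4 of the 8 were called lower in LPMC WT than in colon WT (17.5% of all genes were; 2 of the 8 without LPMC WT replicate 2), among them Ctss, the protease that makes the last cuts of the invariant chain, at -1.08 (SE 0.28, adjusted p 0.0129), and Ifi30 at -0.72 (SE 0.15, adjusted p 0.00421). In KO, Sppl2a, which clears the membrane stub of the invariant chain, was lower in LPMC, at -0.94 (SE 0.21, adjusted p 0.00903) and Lgmn, an endosomal protease, was higher, at 0.67 (SE 0.22, adjusted p 0.0442).

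Of 6 costimulatory and checkpoint ligands, all 6 were below 0 in colon KO against WT (median -1.14) and 0 were called. Between tissues in KO, 3 were called higher in LPMC (14.5% of all genes were; 0 of the 6 without LPMC KO replicate 3): Cd80 by 2.74 (SE 0.67, edgeR adjusted p 0.012), Cd86 by 3.45 (SE 0.86, adjusted p 0.0147) and Pdcd1lg2 by 2.94 (SE 0.88, adjusted p 0.0293). Cd86, which engages CD28 on T cells, had 35.8, 12.1 and 59.8 CPM in LPMC KO, against 4.26, 0.568 and 5.17 CPM in colon KO. In WT edgeR called 0 of the 6 (35.4% of all genes were), with 2 higher at an unadjusted p under 0.05 (23.1% of all genes). DESeq2 called 2 of the 6 (20.4% of all genes were higher and 21.6% lower). The difference between the genotypes was not called for Cd80 or Cd86 (edgeR adjusted p 0.907 and 0.915). Of the molecules on T cells that bind class II, Lag3 was higher in LPMC KO than in colon KO by 2.48 (SE 0.56, adjusted p 0.00868) and Cd4 by 2.31 (SE 0.64, adjusted p 0.0219); 1 of the 2 was called without any 1 of LPMC KO replicates 1 and 3 and colon KO replicates 2 and 3.

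Ifng, the gene of interferon gamma itself, had 1.82, 0.195 and 1.52 CPM in colon KO, against 2.90, 14.1 and 0.259 CPM in colon WT. Socs1, a feedback inhibitor of the interferon receptors, had 42.8, 16.5 and 60.4 CPM in KO, against 85.1, 276 and 38.6 CPM in WT. Ido1, an interferon-induced enzyme of tryptophan breakdown, had 132, 83.4 and 257 CPM in KO, against 397, 1711 and 202 CPM in WT. For all 3 genes WT replicate 2 was the highest of the colon libraries, the library that was also highest for H2-DMa, H2-DMb1, H2-Ab1 and Cd74. For H2-Aa, H2-Eb1, H2-DMb2, H2-Oa, H2-Ob and Ciita the highest was WT replicate 1. Ciita had 77.4 CPM there and 35.2 CPM in WT replicate 2, and a link with Ifng was not tested. None was called (log2 fold changes -2.32, -1.79 and -2.34, SE 1.31, 0.76 and 0.82, edgeR adjusted p 0.666, 0.632 and 0.632). Ifng and Socs1 come from a list of 8 interferon gamma signalling genes. Of these 8, 4 lay above 0 and 4 below in colon KO against WT (median -0.27). All 13 interferon-induced genes were below 0 in colon KO against WT (median -0.86) and all 13 above 0 in LPMC (median 0.27), with 0 called in either. Of 10 class I presentation genes, all 10 were below 0 in colon KO (median -0.72). Among them Psmb8, an immunoproteasome subunit, had 104, 117 and 123 CPM in KO, against 199, 437 and 139 CPM in WT. The groups did not overlap for Psmb8 (edgeR adjusted p 0.632), and 6.12% of all genes lay lower in KO without overlap. At an unadjusted p under 0.05, 5 of the 10 class I genes and 1 of the 13 interferon-induced genes were lower in colon KO, against 4.47% of all genes.

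Between tissues in WT, 7 of the 10 class I genes were called lower in LPMC WT than in colon WT (17.5% of all genes were), such as Psmb8 at -1.85 (SE 0.42, edgeR adjusted p 0.00689) and H2-D1 at -1.03 (SE 0.24, adjusted p 0.00791), against 0 of the 10 class II genes. Ido1 and Socs1 had log2 fold changes of -4.84 (SE 0.97, adjusted p 0.00413) and -3.58 (SE 0.74, adjusted p 0.00486). In KO, 1 of the 10 class I genes was called lower in LPMC (median -0.25), where 13.6% of all genes were. Ido1 and Socs1 were not called lower in KO. The difference between class I and class II genes was not itself tested. Of the ligand and coreceptor of Cd74 at the cell surface, Mif was lower in LPMC in KO (-1.08, SE 0.25, adjusted p 0.00962) and WT (-1.62, SE 0.25, adjusted p 0.00104), and Cd44 was higher in KO (2.31, SE 0.35, adjusted p 0.00108) and WT (2.05, SE 0.35, adjusted p 0.00159). Between KO and WT neither was called in LPMC or in colon.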

How the data were processed

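Stranded mRNA libraries from a TruSeq kit were sequenced on a HiSeq instrument, per the labels' protocols. STAR and GRCm38 (mm10) are named in the submitters' processing notes; for the STAR version, counter, annotation and strand setting the sources used here name nothing. The deposited values are whole-number counts per Ensembl gene for 12 libraries, which the authors left without normalization. Groups and replicate numbers came from the labels. Of 54109 genes, 54042 matched GENCODE M21 and 67 did not. Even values were in excess (66.6 to 76.6% of counts from 1 to 20), as when both mates of a pair are counted, and counts are then not all independent. Replicates differed far beyond sampling noise and all were kept.

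Tests used edgeR 4.0.16 in R 4.3.3 (TMM, filterByExpr with a minimum count of 10, robust quasi-likelihood F-test), on the 6 libraries of a tissue for KO against WT and on all 12 for the other comparisons. Benjamini-Hochberg adjustment ran over all genes tested, with calls at an adjusted p under 0.05. The SE is the size of the log2 fold change divided by the square root of F. Log2 CPM used a prior count of 2, and RPKM divided CPM by the union of GENCODE exons. Alternatives were DESeq2 1.42.0, its size factors, no filter, halved counts, replicate blocks, marker scalings (1 of them also without colon WT replicate 1), H2-DMb1 and H2-DMb2 added together, 1 fit of all 12 libraries, and leaving libraries out. The scripts were tested on simulated data.

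Same-numbered LPMC and colon libraries deviated together from group means (r 0.202 to 0.325 in WT and 0.164 to 0.435 in KO over 12767 genes). In WT each r was above that with any other number (at most 0.125). In KO it was not for replicate 1 (0.164 against 0.174), and it was close for replicate 3 (0.369 against 0.354). The numbers were taken to pair the tissues, which the labels do not state and these values leave uncertain in KO. The genes and lists were chosen with earlier results of these data known. All 10 genes are named, from each pathway list up to 4 genes with the lowest p in a comparison, and the 8 genes most like the mean of H2-Aa, H2-Ab1, H2-Eb1 and Cd74. Ptprc, Epcam and the other marker genes named as examples were chosen after their values were seen.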

Additional observations from a re-analysis of the deposited data

How the results depend on the processing

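Values are log2 fold changes unless they are counts of the 10 genes called. For colon KO against WT, 163 values of single genes under an alternative kept their direction and side of the threshold, 11 changed direction and 2 passed the threshold, and 3 DESeq2 values with no adjusted p are not counted. Scaled to pan-leukocyte markers the median was 0.15, with H2-Aa at 0.15, H2-Ab1 at 0.35, H2-Eb1 at 0.16, H2-DMa at 0.53, H2-DMb1 at 0.07, Cd74 at 0.32 and Ciita at 0.76. Scaled to monocyte and macrophage markers, 2 genes were called, and 0 with colon WT replicate 1 also left out (chosen after seeing the data), where Ciita was at 0.16. Without colon WT replicate 1 and colon KO replicate 2 together, a choice made after seeing the data, H2-DMb2 was at 0.12, H2-Oa at 0.02 and Ciita at 0.08. Leaving out 1 library at a time gave medians from -1.67 to -0.93, with H2-DMb2 as low as -4.83, H2-Oa as low as -4.38 and Ciita as low as -1.66. For LPMC KO against WT, 18 changed direction and the others held. Scaled to pan-leukocyte markers, H2-Aa was at -0.06, H2-Ab1 at -0.16, H2-Eb1 at -0.18, H2-DMb1 at -0.06, H2-DMb2 at 0 and Cd74 at -0.05. Scaled to macrophage markers the median was -0.55, with H2-Aa at -0.58, H2-Ab1 at -0.69, H2-Eb1 at -0.71, H2-DMa at -0.50, H2-DMb1 at -0.60, H2-DMb2 at -0.51, H2-Oa at -0.32, H2-Ob at -0.44, Cd74 at -0.58 and Ciita at -0.34. Leaving out 1 library gave medians from 0.03 to 0.88, H2-DMb1 from -0.09 to 0.82 and Ciita from -0.18 to 1.14, both lowest without LPMC KO replicate 1. For the KO effect in LPMC minus that in colon, 221 held and 8 changed direction. Pan-leukocyte scaling gave a median of -0.27, with H2-Aa at -0.21, H2-Ab1 at -0.50, H2-Eb1 at -0.34, H2-DMa at -0.49, H2-DMb1 at -0.13, Cd74 at -0.37 and Ciita at -0.56, and macrophage scaling a median of 0.28, with H2-Ab1 at -0.05.

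For LPMC WT against colon WT, 195 held and 34 changed direction. The replicate block, which pairs all libraries of a number, put H2-Aa at -0.01, H2-Ab1 at -0.02, H2-DMb2 at 1.04, H2-Oa at 0.44 and H2-Ob at 0.96. The replicate block within a genotype, chosen after seeing the data, put H2-DMb2 at 1.57, H2-Oa at 0.87 and H2-Ob at 1.52. Pan-leukocyte scaling put H2-Aa at -1.34, H2-Ab1 at -1.46 and H2-Eb1 at -0.96. Macrophage scaling put H2-DMa at 0.16, H2-DMb2 at 0.18 and Cd74 at 0.61, and epithelial scaling put H2-DMa at 0.29, H2-DMb2 at 0.37, H2-Oa at 0.09, H2-Ob at 0.20 and Cd74 at 0.80. Without colon WT replicate 1 and colon KO replicate 2, 3 genes were called, H2-DMb2 at 3.35, H2-Oa at 2.68 and H2-Ob at 3.25, and Cd74 was at 0.02, H2-Aa at 0.40 and H2-Eb1 at 0.78. Leaving out 1 library gave 0 to 3 called, with H2-DMb2 from -1.11 to 3.33, H2-Oa from -1.40 to 2.66, H2-Ob from -1.30 to 3.23, Cd74 from -0.44 to 0.24, H2-Aa from -0.39 to 0.38, H2-Ab1 from -0.35 to 0.31 and H2-Eb1 from -0.05 to 0.76. Those fits called 5464 to 8440 of all genes in either direction. For LPMC KO against colon KO, 153 held, 8 changed direction, 28 passed the threshold and 40 lost it. With no filter 0 genes were called, with DESeq2 7, with epithelial scaling 9, with the replicate block 4, with the block within a genotype 7, and with 1 library left out 0 to 8. The replicate block called 13.8% of all genes higher. Fits with 1 library left out called 3647 to 6269 of all genes in either direction. Pan-leukocyte scaling gave a median of -1.76, with H2-Aa at -1.55, H2-Ab1 at -1.96, H2-Eb1 at -1.30, H2-DMa at -2.49, H2-DMb1 at -2.55, Cd74 at -1.96 and Ciita at -2.40, and Ciita ran from -0.08 to 1.29 with 1 library left out. The cause of these shifts was not tested. KO and WT libraries with the same number correlated from -0.255 to 0.036 in colon and from -0.439 to 0.402 in LPMC. The labels do not pair them, and with the number as a block 0 of the 10 genes were called in either tissue.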
